A study of Mus with 12 samples.

Results

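The genes described here encode 8 receptors by which blood leukocytes sense inflammatory signals other than chemokines. They are the formyl peptide receptors Fpr1 and Fpr2, the complement receptors C5ar1, C5ar2 and C3ar1, the lipid mediator receptors Ltb4r1 and Ptafr, and the histamine receptor Hrh2. They were chosen by gene symbol and are 8 of the 25247 genes in the deposited table for blood. RNA was sequenced from the blood of 12 female BALB/c mice, 3 per group and 1 library per mouse, taken on day 30. The mice were 6 weeks old when purchased, and the groups had the following treatments. Solvent mice had the acetone and olive oil vehicle on shaved back skin and the right ear. Mice of the other 3 groups were sensitised on the same sites with 1% 2,4-dinitrochlorobenzene (DNCB), a skin-sensitising hapten, and then challenged with 0.5% DNCB. DNCB mice had this treatment alone, which the study used as a model of atopic dermatitis. scMSC mice also received 2000000 human umbilical cord mesenchymal stem cells (MSC) per dose, in 100 µL under the skin beside the lesion. scivMSC mice received the same dose divided between 50 µL under the skin and 50 µL into the tail vein. The sources used here do not describe an injection of cell-free solution in the DNCB group, so injection and cells cannot be told apart, and the MSC are human cells in mice with an intact immune system.

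These receptors belong to the large family that signals through heterotrimeric G proteins. Fpr1 and Fpr2 bind formylated peptides from bacteria and mitochondria, C5ar1 and C3ar1 bind complement fragments, Ltb4r1 binds leukotriene B4, and Ptafr binds platelet-activating factor. In neutrophils and monocytes most of them couple to inhibitory G proteins and drive migration, degranulation and the oxidative burst, whereas Hrh2 couples to the stimulatory G protein and raises cyclic AMP. C5ar2 binds the same ligand as C5ar1 but does not couple to G proteins.

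Estimated counts summed to between 52179764 and 65139421 per library, and haemoglobin genes made up 91.3% to 95.6% of summed FPKM, the level used throughout, which is normalised for gene length and library size. 1 library stood apart: scivMSC replicate 2 had the highest haemoglobin share and the fewest genes with at least 4 counts, 11806 against 13159 to 17350 in the other libraries. A gene was tested when its FPKM was at least 1 in at least 3 libraries, which held for 5527 genes and for 6 of the 8 receptors. C5ar2 and C3ar1 did not pass. Hrh2 passed only through its 3 DNCB libraries, so its inclusion depended on its being high there, and it is described but left out of counts of receptors in contrasts with DNCB. The other 5 passed also without the DNCB libraries. A gene was called when the adjusted p of edgeR's quasi-likelihood test was under 0.05 and the fold change over 2. Libraries were scaled by their total counts. Under this scaling the tested genes as a whole had a median log2 fold change of 0.06 between DNCB and Solvent, while the medians of the MSC groups against DNCB were -0.63 for scMSC and -1.53 for scivMSC. Under TMM scaling, which centres most genes, these 3 medians were -0.09, 0.06 and 0.04, so changes are also given relative to them.

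Fpr1 and Fpr2 lie side by side on chromosome 17. Fpr1 (ENSMUSG00000045551) spans 17876471 to 17883940 on the minus strand, and Fpr2 (ENSMUSG00000052270) spans 17887824 to 17893952 on the plus strand, 3883 bases away. The Fpr3 gene model overlaps 6101 bases of Fpr2 on the same strand, so reads shared by the 2 cannot be placed with certainty, but Fpr3 reached an FPKM of at most 0.255 in any library. C5ar1 (ENSMUSG00000049130, 16246743 to 16259540) and C5ar2 (ENSMUSG00000074361, 16234585 to 16244154) are also neighbours, on the minus strand of chromosome 7 with 2588 bases between them. C3ar1 lies on chromosome 6 (122847138 to 122856161, minus strand), Ltb4r1 on chromosome 14 (55765962 to 55768494, plus strand), Ptafr on chromosome 4 (132564067 to 132582683, plus strand) and Hrh2 on chromosome 13 (54192129 to 54236180, plus strand). Intervals are the whole gene models of the deposited table. Their starts and ends lie within 4 bases of the GRCm38 RefSeq genes, except the start of Hrh2, which is 159 bases off. The submitters' processing notes list mm8, with which the coordinates were not compared.

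DNCB blood held many more transcripts of the formyl peptide receptors than Solvent blood. Fpr1 was at an FPKM of 0.93, 1.06 and 0.33 in the Solvent libraries and at 19.8, 30.1 and 23.8 in the DNCB libraries. Fpr2 was at 1.82, 2.00 and 0.59 in Solvent and at 38.1, 55.1 and 40.8 in DNCB. The lowest DNCB library was far above the highest Solvent library for both genes. The log2 fold change was 4.98 ± 0.51 (SE, n = 3 per group) for Fpr1, a 31.5-fold difference, and 4.92 ± 0.53 for Fpr2, with adjusted p of 6.14e-06 and 8.64e-06 in edgeR's quasi-likelihood test. These changes were larger than those of 99.4% of tested genes.

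C5ar1, the receptor for the complement fragment C5a, and Ltb4r1, the high-affinity leukotriene B4 receptor, rose as well. C5ar1 was at an FPKM of 2.38, 1.65 and 1.31 in Solvent and at 20.3, 32.8 and 21.5 in DNCB. Ltb4r1 was at 0.88, 0.64 and 0.46 in Solvent and at 10.9, 14.6 and 14.1 in DNCB. Neither gene showed overlap between the groups. The log2 fold change was 3.80 ± 0.45 for C5ar1 and 4.30 ± 0.41 for Ltb4r1 (adjusted p = 1.83e-05 and 2.90e-06, edgeR's quasi-likelihood test, n = 3 per group).

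Ptafr rose less, and Hrh2 did not pass the test. Ptafr was at an FPKM of 1.92, 1.57 and 1.12 in Solvent and at 8.10, 11.6 and 7.51 in DNCB, a log2 fold change of 2.56 ± 0.48 (adjusted p = 0.00110, edgeR's quasi-likelihood test). Hrh2 was at 0.52, 0.45 and 0.19 in Solvent and at 1.08, 1.96 and 1.06 in DNCB, a log2 fold change of 1.81 ± 0.80 (adjusted p = 0.122 in the same test). The Hrh2 groups did not overlap, but Hrh2 passed the filter only through its 3 DNCB libraries, so this was set by the filter. The adjusted p of Hrh2 was 0.0304 by DESeq2 and 0.000127 in an edgeR fit of the 6 libraries of this contrast alone. By edgeR it was 0.00193 without scivMSC replicate 2, a library outside this contrast in which Hrh2 had 0 counts. It was 0.0603 under TMM scaling and 0.163 to 0.312 with 1 Solvent or DNCB library left out, also by edgeR.

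Of the 5 receptors that passed the filter also without DNCB libraries, 5 were called higher in DNCB than in Solvent, beside 15.6% of tested genes, and 5 under TMM scaling, beside 16.1%. Their median log2 fold change was 4.30. None of the 5 overlapped between the groups, which held for 41.5% of tested genes. The plot of FPKM by library shows these groups for each gene.

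**Figure D1:**
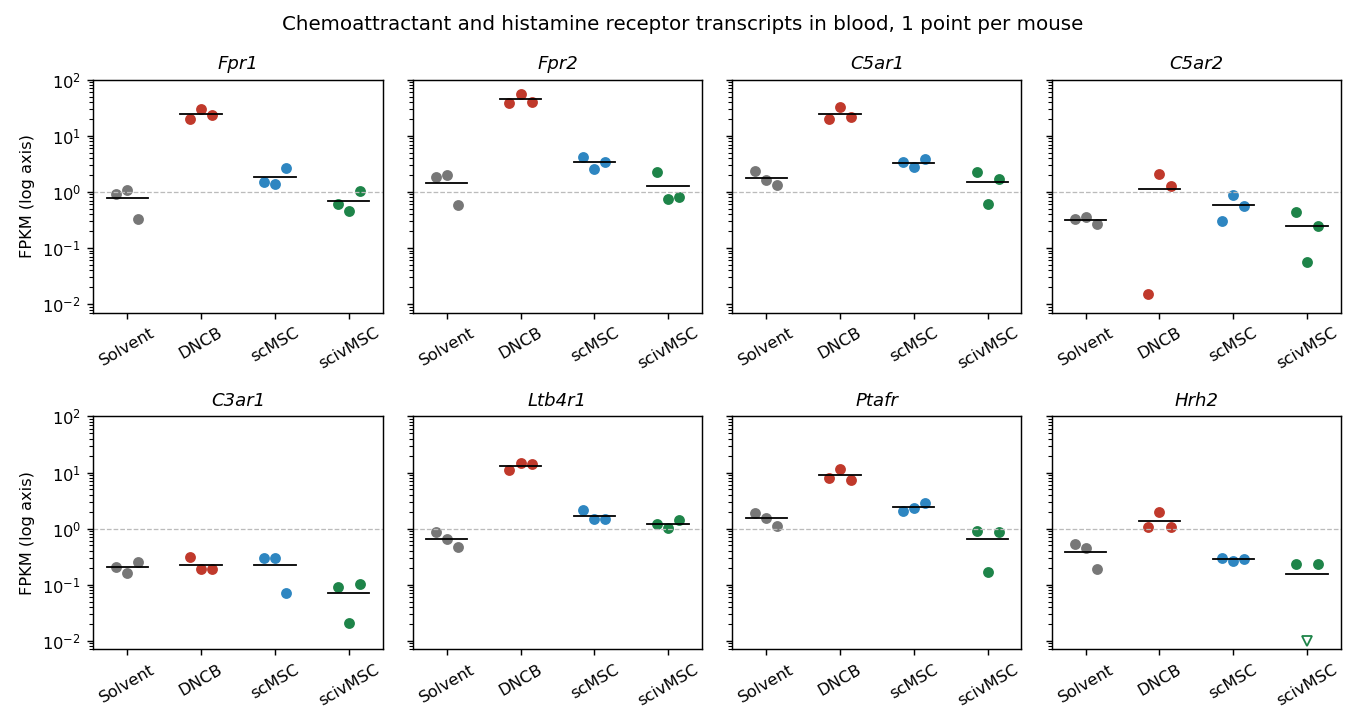
FPKM of the 8 receptor genes on a log axis in blood of Solvent, DNCB, scMSC and scivMSC mice; each point is 1 mouse, the black bar is the group mean, the dashed line marks an FPKM of 1, and the open triangle at the bottom edge is Hrh2 in scivMSC replicate 2, which is listed at 0. For Fpr1, Fpr2, C5ar1, Ltb4r1 and Ptafr the 3 DNCB points lie above all other points, whereas C3ar1 stays at or below 0.308 in all 12 libraries. The 3 DNCB points of Hrh2 lie above its other points too, but Hrh2 passed the filter only through them, so this was set by the filter.

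With subcutaneous MSC, the receptors were at lower levels than in DNCB blood. Fpr1 was at an FPKM of 1.51, 1.36 and 2.71 in the scMSC libraries and Fpr2 at 4.15, 2.56 and 3.41. C5ar1 was at 3.37, 2.77 and 3.85, and Ltb4r1 at 2.15, 1.45 and 1.47. Each of these values was below the lowest DNCB library of its gene. The log2 fold change was -3.73 ± 0.48 for Fpr1 and -3.73 ± 0.50 for Fpr2, a 13.3-fold difference in both. It was -2.97 ± 0.39 for Ltb4r1 and -2.91 ± 0.43 for C5ar1. The adjusted p of these 4 genes lay between 8.85e-05 and 2.40e-04 in edgeR's quasi-likelihood test.

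Ptafr, the receptor for platelet-activating factor, was at an FPKM of 2.07, 2.38 and 2.91 in scMSC and fell by 1.90 ± 0.47 on the log2 scale (adjusted p = 0.00708, edgeR's quasi-likelihood test). Hrh2 was at 0.30, 0.27 and 0.29 and had a log2 fold change of -2.25 ± 0.81 with an adjusted p of 0.0482 in the same test. That call rests on a p close to the threshold. Hrh2 was not called under TMM scaling (adjusted p = 0.0973), by DESeq2 (0.0576) or when any Solvent, DNCB or scMSC library was left out (0.0522 to 0.173).

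Without Hrh2, 5 of 5 receptors were called lower in scMSC than in DNCB, beside 24.9% of tested genes, and 5 under TMM scaling, beside 12.3%. Relative to the median of all tested genes, the log2 difference ranged from -3.10 for Fpr2 to -1.26 for Ptafr. The groups of these 5 did not overlap, as for 55.3% of tested genes.

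With MSC given by both routes, the receptors were again at lower levels than in DNCB blood. Fpr1 was at an FPKM of 0.62, 0.46 and 1.03 in the scivMSC libraries and Fpr2 at 2.28, 0.76 and 0.81. C5ar1 was at 2.23, 0.60 and 1.69, and Ltb4r1 at 1.19, 1.02 and 1.41. Ptafr was at 0.91, 0.17 and 0.86, and Hrh2 at 0.23, 0 and 0.23. The value of 0 for Hrh2 in replicate 2 allows up to 12 counts, or an FPKM of 0.0356, for counting error only. Replicate 2, the library that stood apart, was the lowest of its group for all 6 genes. The DNCB libraries lay above every scivMSC library, which for Hrh2 was set by the filter.

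The log2 fold change was -5.13 ± 0.51 for Fpr1, -5.11 ± 0.54 for Fpr2, -4.05 ± 0.45 for C5ar1 and -3.81 ± 0.51 for Ptafr. It was -3.45 ± 0.40 for Ltb4r1 and -3.13 ± 0.85 for Hrh2, the gene with the highest adjusted p of the 6, 0.00408 in edgeR's quasi-likelihood test. Without Hrh2, 5 of 5 receptors were called lower, beside 62.0% of tested genes, and they stayed called when replicate 2 was left out. With 62.0% of tested genes called, the count of 5 says little about the receptors by itself. The size relative to the median of all tested genes was -3.60 for Fpr1, -3.58 for Fpr2, -2.52 for C5ar1, -2.28 for Ptafr, -1.92 for Ltb4r1 and -1.61 for Hrh2. Under TMM scaling the 5 were called lower, beside 18.9% of tested genes, and Hrh2 had an adjusted p of 0.0548. The groups did not overlap for the 5, as for 73.3% of tested genes. The scMSC and scivMSC contrasts share their DNCB libraries, so their likeness is not independent.

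**Figure D2:**
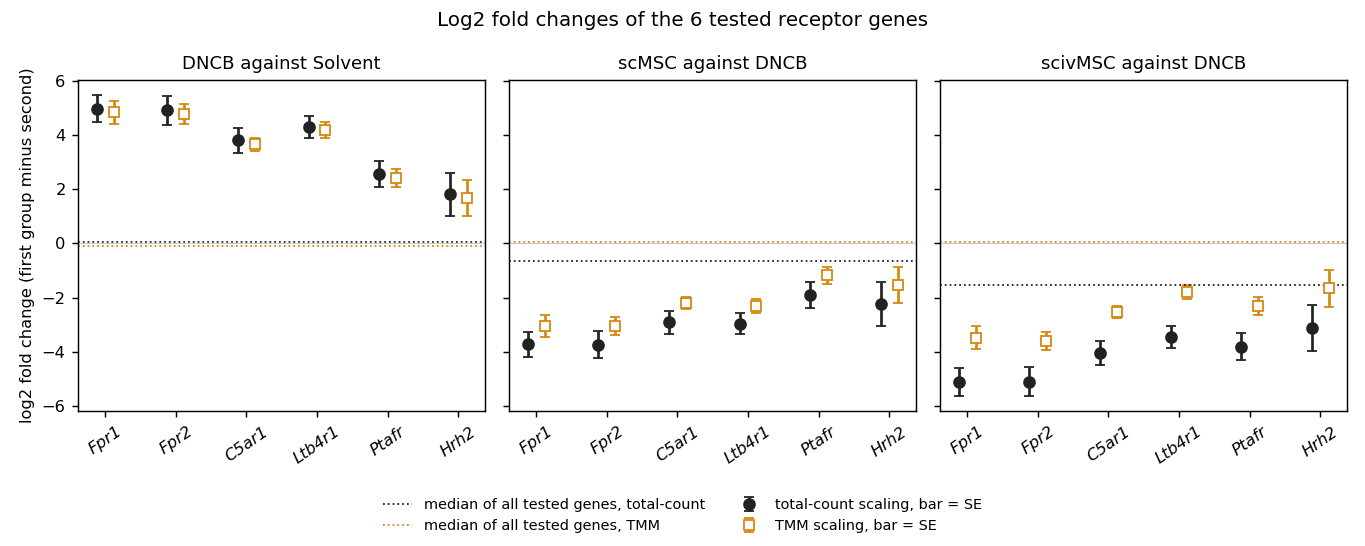
Log2 fold change (first group minus second) of the 6 tested receptors for DNCB minus Solvent (left), scMSC minus DNCB (middle) and scivMSC minus DNCB (right); filled circles use total-count scaling, open squares TMM scaling, bars are standard errors, and dotted lines are the medians of the 5527 tested genes under each scaling. Fpr1 and Fpr2 lie farthest from the dotted lines in all 3 panels, and the distance between the circles and squares of a gene is widest in the right panel.

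Between the MSC routes, the direction of the receptors depended in part on the scaling. Ptafr (log2 fold change -1.92 ± 0.48), Fpr1 (-1.40 ± 0.45), Fpr2 (-1.37 ± 0.47) and C5ar1 (-1.13 ± 0.41) were called lower in scivMSC than in scMSC (adjusted p from 0.0132 to 0.0439, edgeR's quasi-likelihood test), beside 30.4% of tested genes. Ltb4r1 had -0.48 and Hrh2 -0.88, and neither passed. The median of all tested genes was -0.87, and under TMM scaling only Ptafr was called (-1.13, adjusted p = 0.0195), beside 4.92% of tested genes, while Ltb4r1 took the opposite sign (0.51). Without scivMSC replicate 2 only Ptafr was called, and none was in a fit of the 6 libraries of this contrast alone. The FPKM values of the 6 receptors did not overlap between the MSC groups, as for 50.5% of tested genes.

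Against Solvent, the calls for the receptors of MSC-treated mice depended on the scaling. In scMSC, Ltb4r1 (1.33), Fpr1 (1.24) and Fpr2 (1.18) had the highest log2 values, and 0 of 6 receptors were called, beside 0.651% of tested genes in either direction; at an unadjusted p under 0.05, 4 of 6 passed, beside 28.3% of tested genes in either direction. By DESeq2 5 were called higher, beside 8.16% of tested genes. Under TMM scaling, 5 of 6 were called higher, all but Hrh2, beside 7.29% of tested genes. In scivMSC, Ptafr was called lower (-1.25, adjusted p = 0.0270, edgeR's quasi-likelihood test), beside 59.2% of tested genes called lower, but Ptafr had 0.09 under TMM scaling. Under that scaling Ltb4r1 (2.39), Fpr1 (1.36), Fpr2 (1.18) and C5ar1 (1.13) were called higher, beside 22.4% of tested genes. Except for Ltb4r1 (0.85), the log2 values of these genes under total-count scaling were below 0, between -0.24 for C5ar1 and -0.15 for Fpr1. Without scivMSC replicate 2, Ptafr had -0.80 and was not called.

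Over the 4 groups together, each of the 5 receptors other than Hrh2 had an adjusted p under 0.05 in the quasi-likelihood F test, as did 72.3% of tested genes. Fpr1 (3.05e-07) ranked 22 of the 5527 genes and Hrh2 (0.00914) ranked 3107.

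C5ar2 and C3ar1 were low in every group. C5ar2 was at an FPKM of 0.32, 0.35 and 0.27 in Solvent, 0.30, 0.88 and 0.57 in scMSC, and 0.43, 0.06 and 0.24 in scivMSC. In DNCB it was at 0.01, 2.11 and 1.25. DNCB replicate 1 held 4 counts of C5ar2 where the other DNCB libraries held 478 and 282, although its C5ar1 was like theirs. C3ar1, the receptor for the complement fragment C3a, was at 0.21, 0.16 and 0.25 in Solvent and at 0.31, 0.19 and 0.19 in DNCB. It was at 0.30, 0.30 and 0.07 in scMSC and at 0.09, 0.02 and 0.10 in scivMSC. The DNCB values of C3ar1 overlapped those of Solvent and scMSC, and its scivMSC libraries lay below all Solvent and DNCB libraries.

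An exact permutation test over all 369600 assignments of the libraries to groups gave p = 0.351 for C5ar2 and 0.128 for C3ar1 (0.351 and 0.256 after Benjamini-Hochberg adjustment over the 2). In a fit of all genes without the filter, C5ar2 was called lower in scivMSC than in DNCB (-2.18 ± 0.77, adjusted p = 0.0330, edgeR's quasi-likelihood test), beside 23.6% of the 25247 genes in either direction. In DNCB against Solvent it had 1.84 ± 0.76 (adjusted p = 0.214, with 4.67% of genes called), and without DNCB replicate 1, a setting chosen after its value was seen, 2.41 ± 0.68 (adjusted p = 0.0360). C3ar1 was called in none of the 6 contrasts of the unfiltered fit. Between DNCB and Solvent it had a log2 value of 0.13 ± 0.77, and -1.61 ± 0.80 in scivMSC against DNCB (adjusted p = 0.157). In bulk blood, fewer cells of a type and less RNA per cell cannot be told apart for any of the receptors.

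The order of receptor levels differed between groups. In DNCB blood the mean FPKM was 44.7 ± 9.11 (SD, n = 3) for Fpr2, 24.9 ± 6.89 for C5ar1, 24.6 ± 5.19 for Fpr1, 13.2 ± 2.00 for Ltb4r1 and 9.06 ± 2.20 for Ptafr. Hrh2 (1.36 ± 0.51), C5ar2 (1.13 ± 1.05) and C3ar1 (0.228 ± 0.0689) followed. Fpr2 stood above all others in each DNCB library, C5ar1 and Fpr1 overlapped, and so did the ranges of Ltb4r1 and Ptafr, although Ltb4r1 was above Ptafr in each library. Hrh2 and C5ar2 overlapped, with Hrh2 the higher in 1 of 3 libraries, and C5ar2 and C3ar1 overlapped too. In Solvent blood C5ar1 (1.78 ± 0.54) had the highest mean, followed by Ptafr (1.54 ± 0.40) and Fpr2 (1.47 ± 0.77), and each overlapped the next. In scMSC blood Fpr2 (3.37 ± 0.80) and C5ar1 (3.33 ± 0.54) could not be ordered. In scivMSC blood C5ar1 (1.50 ± 0.83), Fpr2 (1.28 ± 0.87) and Ltb4r1 (1.21 ± 0.20) overlapped.

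The summed FPKM of the 8 receptors was 98.6 to 148 in DNCB libraries, 4.53 to 8.98 in Solvent, 12.0 to 15.3 in scMSC and 3.07 to 7.98 in scivMSC. Fpr1, Fpr2 and C5ar1 together made up 78.2% to 79.5% of that sum in the DNCB libraries and 49.3% to 65.2% in the other 9. These shares do not depend on how libraries are scaled. The ratio of Fpr2 to Fpr1 was 1.79 to 1.96 in Solvent and 1.72 to 1.92 in DNCB, so it overlapped while the level of Fpr2 differed 30.2-fold. It spread over 1.26 to 2.74 in scMSC and 0.783 to 3.71 in scivMSC.

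**Figure D3:**
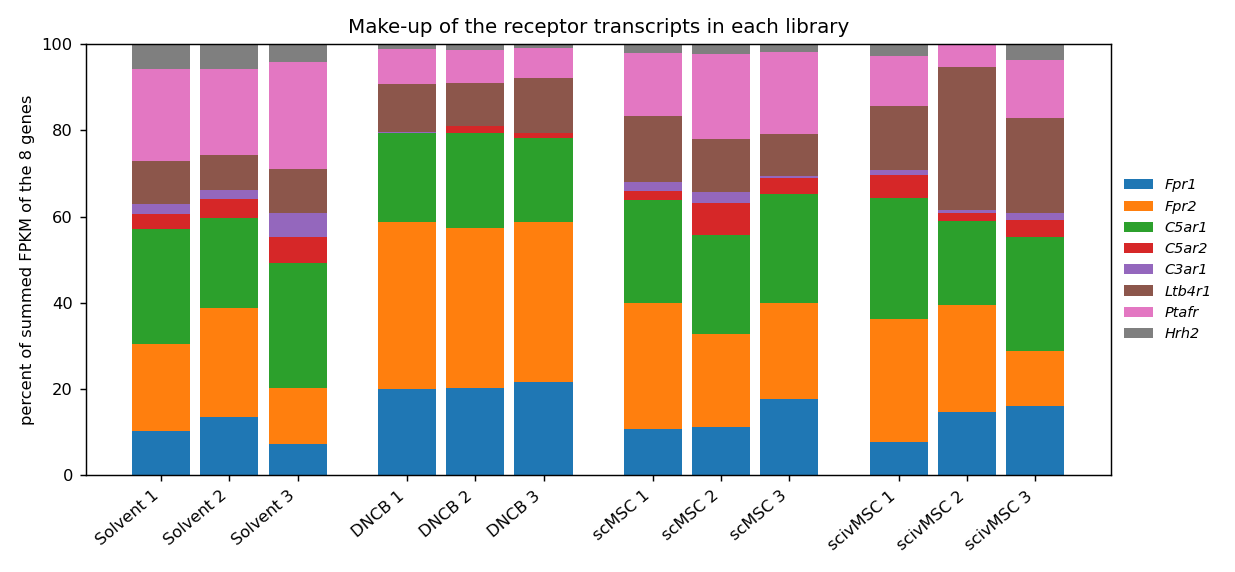
Percent of the summed FPKM of the 8 receptor genes that each gene contributes, as stacked bars from 0 to 100 for the 12 libraries. The 3 DNCB bars are alike, with 57.4% to 58.7% from Fpr1 and Fpr2 together, where the other 9 bars have 20.3% to 40.03%.

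Within-library comparisons of 2 receptors were made for 5 pairs in 6 contrasts on the log2(FPKM + 1) scale, 30 tests in all. With 3 mice per group the exact permutation test cannot go below p = 0.1. Ptafr relative to Ltb4r1 was 0.61 ± 0.06 (SD, n = 3) in Solvent, -0.51 ± 0.28 in DNCB, 0.36 ± 0.36 in scMSC and -0.46 ± 0.30 in scivMSC. The difference was -1.11 between DNCB and Solvent, without overlap (exact permutation p = 0.1, two-sided, adjusted 0.176), and 0.87 between scMSC and DNCB (the same p). Of scivMSC and DNCB the values overlapped. On this scale Fpr2 relative to Fpr1 was 0.45 ± 0.16 in Solvent and 0.84 ± 0.08 in DNCB, a difference of 0.39 without overlap (exact permutation p = 0.1, adjusted 0.176). The plain ratio, which has no pseudocount, overlapped at 1.79 to 1.96 in Solvent and 1.72 to 1.92 in DNCB. The difference of 0.39 therefore depends on the pseudocount of 1. Between DNCB and Solvent the difference was -3.10 for Hrh2 relative to Fpr1, -2.65 for C5ar2 relative to C5ar1 and -3.18 for C3ar1 relative to C5ar1, each without overlap (exact permutation p = 0.1). For these pairs of a low and a high gene the pseudocount of 1 sets part of the size.

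Neutrophil markers moved with the receptors. The sum of 10 mature neutrophil markers was 6439 to 10148 FPKM in DNCB libraries, 217 to 442 in Solvent, 529 to 683 in scMSC and 206 to 625 in scivMSC. Clec4e passed the filter only through DNCB libraries. The other 9 were called higher in DNCB than in Solvent (median log2 fold change 4.39) and lower in scMSC (-3.36) and scivMSC (-4.24) than in DNCB, under TMM scaling too. No mature neutrophil marker was at 0 in any library. Among the monocyte markers, Cx3cr1 was listed at 0 in scivMSC replicate 2 and no other was at 0 in any library. Of 10 granule-stage neutrophil genes, 7 were tested, and these 7 had median log2 fold changes of 5.92 against Solvent in DNCB blood and of -3.68 and -3.19 in the MSC groups against DNCB, with each gene called. Under TMM scaling each was called as well in DNCB and scMSC, but 6 of 7 in scivMSC, where the median was -1.64. Of 9 monocyte markers, whose sum was 24.6 to 45.7 in DNCB, 9.99 to 24.9 in Solvent, 13.8 to 15.3 in scMSC and 9.16 to 10.3 in scivMSC, 7 were tested, Treml4 only through DNCB libraries. Of the other 6, the DNCB and Solvent comparison called 2 higher (under TMM scaling 2 higher and 1 lower). Against DNCB, 2 were called lower with scMSC (2 under TMM scaling) and 5 with scivMSC (3 under TMM scaling, with 1 called higher). Beside all these marker counts, 15.6% of tested genes were called higher in DNCB than in Solvent (16.1% under TMM scaling). Lower than in DNCB were 24.9% in scMSC and 62.0% in scivMSC (12.3% and 18.9% under TMM scaling). With such shares the monocyte counts against DNCB say little by themselves. The part of cell numbers in the receptor changes was not tested.

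Among the remaining marker lists in DNCB against Solvent, 7 of 8 T cell markers, 6 of 6 B cell markers and 2 of 4 tested NK cell markers were called lower, beside 4.87% of tested genes. Among 4 tested eosinophil and basophil markers Mcpt8 was called higher, but it and Cpa3 passed the filter only through DNCB libraries, and 0 of the other 2 were called. Of 8 platelet markers 4 were called higher, beside 15.6% of tested genes, and 0 of 7 erythroid markers passed.

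Relative to the mature neutrophil markers of the same library, the receptors did not all keep pace. The measure is the log2(FPKM + 1) of the receptor minus the mean of the 10 markers, and 48 such comparisons were made. The 10 include Clec4e, which passed the filter only through DNCB libraries, so the marker mean is partly set by its being high there. Ptafr was at -1.92 ± 0.19 (SD, n = 3) in Solvent, -3.69 ± 0.10 in DNCB, -2.32 ± 0.27 in scMSC and -2.62 ± 0.30 in scivMSC. The difference was -1.76 between DNCB and Solvent and 1.37 between scMSC and DNCB, with no overlap (exact permutation p = 0.1, two-sided, the smallest that 3 against 3 allows, adjusted 0.192). With a pseudocount of 0.1 these differences were -1.68 and 1.27. Between scivMSC and DNCB the Ptafr difference was 1.06, but 0.24 with the pseudocount of 0.1. Fpr2 was at -2.01 ± 0.20 in Solvent and -1.50 ± 0.08 in DNCB, higher by 0.51 without overlap (exact permutation p = 0.1), and the difference between scMSC and DNCB was -0.49. With the pseudocount of 0.1, the Fpr2 differences were 0.80 and -0.60.

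Between DNCB and Solvent the difference was 0.12 for Fpr1 (exact permutation p = 0.2) and -0.54 for C5ar1 (exact permutation p = 0.1). For Fpr1 the value with the pseudocount of 0.1 was 0.75. For Ltb4r1 the difference was -0.65, but -0.02 with the pseudocount of 0.1. The other 3 receptors were too low in several groups for this measure to be free of the pseudocount.

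The ligands of these receptors, and the enzymes that make or degrade them, were covered by a list of 17 genes, of which 12 were tested. Lta4h and Hnmt passed the filter only through DNCB libraries, so counts are over the other 10. In DNCB against Solvent 9 were called higher, beside 15.6% of tested genes, 0 lower, and the median log2 fold change was 3.11. Camp, which encodes the cathelicidin precursor, an Fpr2 ligand, rose by 5.92 ± 0.43, and Anxa1, whose product also acts through formyl peptide receptors, by 4.45 ± 0.38. Hdc, the enzyme that forms histamine, rose by 4.03 ± 0.39. Hnmt, which inactivates histamine, had a mean FPKM of 2.51 in DNCB and 0.17 in Solvent. Lta4h, the last enzyme of leukotriene B4 synthesis, had 0.86 ± 0.44 and did not pass. Alox5 and Alox5ap, which act earlier in leukotriene synthesis, were called higher (3.74 ± 0.39 and 3.08 ± 0.34).

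In each MSC group, 9 of the 10 were called lower than in DNCB, beside 24.9% of tested genes in scMSC and 62.0% in scivMSC. The medians were -2.90 in scMSC and -3.57 in scivMSC, where those of all tested genes were -0.63 and -1.53. Hdc had a log2 fold change of -2.89 in scMSC and -4.11 in scivMSC. That of Camp was -3.15 and -2.58. Pafah1b1, a subunit of an acetylhydrolase that inactivates platelet-activating factor, was not called in either group (-0.44 and -0.93). Pla2g7, which encodes another such acetylhydrolase, was called lower in both (-2.27 and -3.89). In DNCB against Solvent Pla2g7 had risen by 3.08 ± 0.42. Under TMM scaling 9 of the 10 were called lower in scMSC and 8 in scivMSC. Camp is also among the granule-stage neutrophil genes.

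G proteins and signalling genes downstream of the receptors had smaller changes. Of 24 listed genes 23 were tested, of which Gnaq, Pik3cg and Pik3r6 passed the filter only through DNCB libraries. Of the other 20, 6 were called higher in DNCB than in Solvent, beside 15.6% of tested genes, with a median log2 fold change of 1.00. Pik3r6, an adaptor subunit of phosphoinositide 3-kinase gamma, had a mean FPKM of 2.15 in DNCB and 0.29 in Solvent. Rgs2, which shortens G protein signals, rose by 2.26 ± 0.43, and Arrb2, the beta-arrestin that desensitises these receptors, by 1.56 ± 0.31. In scMSC 13 of the 20 were called lower than in DNCB, beside 24.9% of tested genes (5 under TMM scaling, with 1 called higher). In scivMSC 16 were, beside 62.0% (9 under TMM scaling, with 2 called higher). The medians were -1.34 and -2.41.

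Related receptors were scarcely detected. Of 14 listed genes 8 were in the table, and none passed the filter. Their summed FPKM was 0.567 to 1.45 over the 12 libraries, and Cysltr2, a cysteinyl leukotriene receptor, reached the highest value, 1.19. The histamine receptor Hrh4 stayed at or below 0.220 and the leukotriene B4 receptor Ltb4r2 at or below 0.0798.

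**Figure D4:**
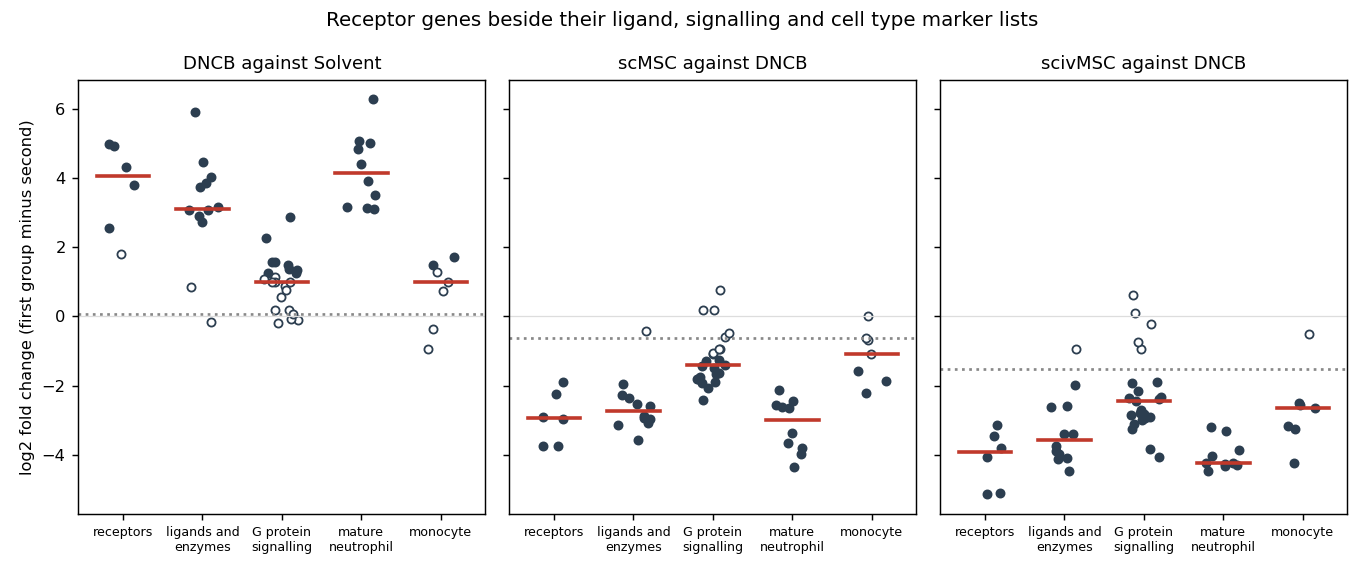
Log2 fold change (first group minus second) of the tested genes of 5 lists in the same 3 contrasts; each point is a gene, filled where called and open where not, red bars are list medians, and the dotted line is the median of all 5527 tested genes. Genes that passed the filter only through DNCB libraries are drawn too. The receptors and the ligand list lie near the mature neutrophil markers (medians 4.05, 3.11 and 4.15 in DNCB against Solvent, such genes included), and the G protein and monocyte lists lie closer to the dotted line (both 1.00).

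The table assigns all 8 genes to G protein-coupled receptor activity in the Gene Ontology and 7 of them to the inflammatory response. These terms were looked up after the table's columns were seen. Of 35 other tested genes with G protein-coupled receptor activity, 14 were called higher and 5 lower in DNCB than in Solvent (median log2 fold change 0.39). Of 115 other tested genes of the inflammatory response, 57 were called higher and 5 lower (median 1.25). Among all tested genes 15.6% were called higher and 4.87% lower. The counts for these terms include any genes that passed the filter only through DNCB libraries.

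For each tested receptor, the genes with the most similar pattern over the 12 libraries were found by the root mean square difference of centred log2(FPKM + 1). Fpr1 was nearest to Cstdc4 (0.261) and Mcemp1 (0.285), where the median over all tested genes was 1.52. Fpr2 was nearest to S100a9 (0.218), which encodes a subunit of the neutrophil protein calprotectin, and Chil1 (0.226), a chitinase-like gene. C5ar1 was nearest to Siglece (0.137), an inhibitory receptor of myeloid cells, and Pygl (0.153), a glycogen phosphorylase. The medians for Fpr2 and C5ar1 were 1.68 and 1.27. Ltb4r1 was nearest to Cpne2 (0.236) and Alox5ap (0.242, median 1.16), the latter needed for leukotriene synthesis. Ptafr was nearest to Sh2d3c (0.117) and Cd101 (0.131, median 0.861). Hrh2 was nearest to Sos2 (0.0879) and Atrn (0.0926, median 0.443), and its small values go with its low level. Outside DNCB the group means were at most 0.607 for Sos2, 0.378 for Atrn and 0.621 for Cpne2. At such levels these genes, like Hrh2, could not pass the filter without DNCB libraries, so their likeness is partly set by the filter. The points share library depth and the haemoglobin share.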

How the data were processed

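Blood RNA of 12 mice was sequenced, and the labels gave each library its group and number. The authors deposited 1 table with, per library, estimated counts and FPKM values (normalised for gene length and library size, haemoglobin included). The submitters' processing notes list HISAT2 2.0, StringTie 1.3.0, Bowtie 0.12.2 and the build mm8, without roles. The counting tool, annotation and strand setting are not given in the sources used here. Of count values from 1 to 12, 54.8% are multiples of 4, so 12 counts served as the floor. Whole counts were fitted with edgeR 4.0.16 in R 4.3.3 (quasi-likelihood, Benjamini-Hochberg adjustment over 5527 genes). Each standard error is the fitted change divided by the square root of its F statistic. Limma 3.58.1, DESeq2 1.42.0 and other scalings, filters and left-out libraries were alternatives. Single values used exact permutation tests (scipy 1.17.1). On simulated counts for DNCB against Solvent over 5527 genes, edgeR recovered 194 of 200 genes changed 8-fold with 13 false calls. It made 1 call in a simulated contrast without change, scivMSC against scMSC. Genes were changed up and down in equal numbers, without the shift of medians seen in the MSC groups. False calls under such a shift were therefore not measured.

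The receptors, the marker, ligand, signalling and related-receptor lists were chosen with earlier results of these data known. Named genes are the 8 receptors, the 2 most similar genes of each tested receptor without a systematic name, and up to 4 called genes per pathway list with the largest change in DNCB against Solvent. Leaving genes that passed the filter only through DNCB libraries out of counts was chosen after seeing the data. Others named (Clec4e, Treml4, Mcpt8, Cpa3, Gnaq, Cx3cr1, Lta4h, Alox5, Pafah1b1, Pla2g7, Fpr3, Cysltr2, Hrh4, Ltb4r2) were chosen after their values were seen.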

Additional observations from a re-analysis of the deposited data

Results flagged for a closer look

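The difference between the MSC routes, scivMSC against scMSC, passed the test for 4 receptors, beside 30.4% of tested genes called lower and a median of -0.87 over all tested genes. In a fit of the 6 libraries of this contrast alone 0 passed. The log2 fold change of Ptafr was -1.92, with scMSC libraries between 2.07 and 2.91 FPKM and scivMSC libraries between 0.17 and 0.91. That of Fpr1 was -1.40, that of Fpr2 was -1.37, and that of C5ar1 was -1.13, each lower in 3 of 3 scivMSC libraries than in any scMSC library, an absence of overlap seen for 50.5% of tested genes. Under TMM scaling the values were -1.13 for Ptafr, -0.43 for Fpr1, -0.55 for Fpr2 and -0.32 for C5ar1, and Ptafr alone passed. Without scivMSC replicate 2 the values of Fpr1, Fpr2 and C5ar1 were -1.16, -1.11 and -0.75, none of them called.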

How the results depend on the processing

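Counts of receptors in this section include Hrh2, which passed the filter only through DNCB libraries. In the main fit 15.6% of tested genes were called higher in DNCB than in Solvent. Against DNCB, 24.9% were called lower in scMSC and 62.0% in scivMSC. The count of receptors called in DNCB against Solvent, scMSC against DNCB and scivMSC against DNCB stayed within 1.5 times of 5, 6 and 6 under every alternative except when a mean FPKM of 5 or more was required. That filter left Fpr1, Fpr2 and C5ar1 to test. All 3 were called in each of these contrasts and in the F test, and 0 in scivMSC against scMSC and in scivMSC against Solvent. These 3 reached that mean only through their DNCB libraries, as their mean FPKM was at most 3.37 in any other group. Their calls against DNCB and in the F test were therefore partly set by that filter. Leaving out 1 library gave 5 to 6, 5 to 6, 6 to 6 and, for the F test, 5 to 6 receptors. In scivMSC against scMSC, 4 became 1 under TMM scaling, 1 by DESeq2, 1 by limma on log2(FPKM + 1), 0 with the 6 libraries of the contrast alone and 1 to 4 with 1 library left out (1 without scMSC replicate 1 or 3 or scivMSC replicate 2, 2 without scivMSC replicate 3). In scMSC against Solvent, 0 became 5 under TMM scaling, 5 by DESeq2, 4 with haemoglobin left out of the totals, 2 with 6 libraries and 0 to 3 with 1 library left out (3 without scivMSC replicate 2, 1 without scivMSC replicate 1). In scivMSC against Solvent, 1 became 4 under TMM scaling, 4 by DESeq2, 0 by limma on log2(FPKM + 1), 0 with 6 libraries and 0 to 1 with 1 library left out (0 without Solvent replicate 2 or scivMSC replicate 2). With haemoglobin left out, and without Solvent replicate 1, the 1 called was Ltb4r1, higher (1.29 and 1.12), and Ptafr lost its call (-0.89 and -1.06). The cause was not tested.

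Log2 fold changes turned sign in 3 contrasts. Ltb4r1 in scivMSC against scMSC was 0.51 under TMM scaling and 0.54 by DESeq2, and Hrh2 in scMSC against Solvent was 0.14 and 0.13. In scivMSC against Solvent, the values under TMM scaling, by DESeq2 and with haemoglobin left out were 1.36, 1.39 and 0.26 for Fpr1, 1.18, 1.20 and 0.14 for Fpr2, and 1.13, 1.15 and 0.13 for C5ar1. Ptafr had 0.0916 under TMM scaling and 0.10 by DESeq2. With 1 library left out, the values were -0.54 to 0.13 for Fpr1, -0.90 to 0.0838 for Fpr2 and -0.64 to 0.14 for C5ar1. Of 774 recomputed log2 fold changes, 668 kept direction and side of the threshold, 54 lost the call, 29 gained it and 23 turned sign. Of 432 within-library ratios, 317 moved by less than the spread between replicates.

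A fit with the replicate number as a block (a paired analysis) was run although same-numbered mice are not said to be paired. Of 18 same-number correlations of deviations from the group means, 3 were over 0.1 (range -0.20 to 0.17). Yet 8 of 12 libraries correlated best with their own number, so these values do not settle whether the numbers mark pairs. The main fit has no block because the labels do not state pairing. With this replicate block 5, 5, 6, 4, 0 and 1 receptors were called in the 6 contrasts and 6 by the F test, Hrh2 in scMSC against DNCB being the call that was lost (-2.29, adjusted p = 0.0553 by edgeR). Calls over all genes went from 1133 to 1165 in DNCB against Solvent, and from 36 to 11 in scMSC against Solvent. Counts divided by 4 and the C5ar2 fit without DNCB replicate 1 were chosen after seeing the data. The former called 6 receptors in DNCB against Solvent, with Hrh2 at an adjusted p of 0.033.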
